A study of Homo sapiens with 6 samples.

Results

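The chromosome 19 zinc finger genes described here are the protein-coding rows on chromosome 19 whose symbol starts with ZNF and whose mean level reached 1 CPM over the 6 libraries (CPM is the gene's count relative to the total count of its library). Of 61806 rows in the count table, 251 were coding chromosome 19 ZNF rows, and 159 of these passed the floor; the remaining 92 lay below it. Poly(A) RNA was sequenced from NB4 cells, an established human line of acute promyelocytic leukaemia. The 3 CD69-overexpressing libraries (genotype CD69-overexpression) came from NB4 cells transduced with a lentivirus for CD69, a lectin of the leukocyte surface that marks early activation. The 3 control libraries (genotype Wild-type) came from NB4 cells carrying the vector control. Both groups grew in the same serum-supplemented RPMI medium, no drug was applied, RNA was taken during logarithmic growth, and all libraries carry the same batch label. The libraries are named as biological replicates, but nothing in the sources used here ties them to separate transductions. A p-value here therefore reflects the spread among the libraries at hand, which may be technical, and a group may hold 1 transduced population.

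Most ZNF genes on chromosome 19 encode proteins with a tandem array of C2H2 zinc fingers, which reads DNA, and many also carry a KRAB domain at the amino end. The KRAB domain binds TRIM28, which brings in the histone methyltransferase SETDB1, HP1 proteins, histone deacetylases and DNA methyltransferases, and many of these proteins silence transposable elements. The genes lie in clusters that grew by tandem duplication, and their own gene bodies are known to carry the same repressive histone mark.

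Promoter windows of 5 members are shown because the results turn on them: ZNF420, ZNF585A, ZNF569 and ZNF181 were close to silent in the controls and lie in adjacent clusters of the long arm, and ZNF146 is the most abundant member and lies in the same cluster as the first 3. Each window runs 5′ to 3′ from 250 bases before to 50 bases after the RefSeq start (GRCh38.p14), and capitals mark CG dinucleotides.
ZNF420 (chr19:37078183-37078482, plus strand): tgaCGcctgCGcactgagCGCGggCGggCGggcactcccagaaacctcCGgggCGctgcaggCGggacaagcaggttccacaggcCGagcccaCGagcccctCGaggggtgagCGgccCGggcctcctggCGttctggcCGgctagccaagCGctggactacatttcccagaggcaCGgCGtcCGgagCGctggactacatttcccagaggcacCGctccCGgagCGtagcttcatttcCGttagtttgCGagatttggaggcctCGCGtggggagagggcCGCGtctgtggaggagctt
ZNF585A (chr19:37172646-37172945, minus strand): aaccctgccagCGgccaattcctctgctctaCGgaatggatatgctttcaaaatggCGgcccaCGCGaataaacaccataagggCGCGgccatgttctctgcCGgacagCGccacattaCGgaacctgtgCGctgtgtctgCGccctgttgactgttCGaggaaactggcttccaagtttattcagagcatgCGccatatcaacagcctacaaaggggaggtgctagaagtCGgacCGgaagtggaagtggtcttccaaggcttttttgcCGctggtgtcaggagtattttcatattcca
ZNF569 (chr19:37467395-37467694, minus strand): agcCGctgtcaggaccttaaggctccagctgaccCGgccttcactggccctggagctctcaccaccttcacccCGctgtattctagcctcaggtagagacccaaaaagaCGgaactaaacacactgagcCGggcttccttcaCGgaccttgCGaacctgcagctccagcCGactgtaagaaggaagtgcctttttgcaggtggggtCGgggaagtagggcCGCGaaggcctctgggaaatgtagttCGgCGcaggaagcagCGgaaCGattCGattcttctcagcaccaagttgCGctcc
ZNF181 (chr19:34733993-34734292, plus strand): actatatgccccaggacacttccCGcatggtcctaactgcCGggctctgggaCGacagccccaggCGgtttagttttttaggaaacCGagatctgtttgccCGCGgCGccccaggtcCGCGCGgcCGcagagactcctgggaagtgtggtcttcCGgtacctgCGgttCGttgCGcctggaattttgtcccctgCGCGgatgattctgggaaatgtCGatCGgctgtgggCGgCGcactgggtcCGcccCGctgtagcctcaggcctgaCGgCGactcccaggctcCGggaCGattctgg
ZNF146 (chr19:36214856-36215155, plus strand): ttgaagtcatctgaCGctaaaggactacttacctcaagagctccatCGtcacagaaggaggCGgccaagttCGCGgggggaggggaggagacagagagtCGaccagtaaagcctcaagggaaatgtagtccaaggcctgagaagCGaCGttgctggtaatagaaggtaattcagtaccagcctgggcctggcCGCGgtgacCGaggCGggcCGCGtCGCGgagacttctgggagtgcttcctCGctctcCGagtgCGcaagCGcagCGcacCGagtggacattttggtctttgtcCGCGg
These windows held 30, 17, 17, 28 and 24 CG dinucleotides in the order printed, above the median of 14 over all 27195 RefSeq promoter windows of that length. The silent-in-control genes and the abundant gene thus overlapped in CG number.

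Total counts per library lay between 51543550 and 57463020. CD69 itself had 98.3, 99.1 and 95.7 CPM in the CD69-overexpressing libraries (replicates 1, 2 and 3, the order used for every set of 3 values), against 80.4, 81.9 and 70.6 CPM in the controls, and was called higher (log2 fold change 0.33, SE 0.07, adjusted p = 0.0153; edgeR quasi-likelihood test). The granule genes ELANE, PRTN3, AZU1 and CTSG, which mark promyelocytes, were abundant in all libraries, while MPO stayed between 0.518 and 1.45 CPM. ELANE, PRTN3 and AZU1 were called higher, with log2 fold changes of 1.92, 2.40 and 0.88. The summed level of 7 promyelocyte markers was 2020, 2090 and 2430 CPM in the CD69-overexpressing libraries, against 1014, 1008 and 1265 CPM in the controls, and its part in the members' rises was not tested. The erythroid gene ALAS2, the T cell gene CD3E and the B precursor gene VPREB1 had 0 counts in every library. Other genes of these lineages were detected. NKG7 had 100, 99.3 and 119 CPM in the CD69-overexpressing libraries, against 55.8, 53.2 and 72.6 CPM in the controls, and was called higher. CD2, at 1.18 CPM or less, was called lower, and HBB stayed at or below 0.428 CPM. Of 9 B lineage markers tested, 4 were called higher. IGLL1 was called lower, with 11.4, 9.22 and 8.83 CPM against 31.3, 28.8 and 40.5 CPM. Overexpressing replicate 1 stood apart from its group on the first principal component, with a score of 25.4 against 40.6 and 38.6 in overexpressing replicates 2 and 3 and -35.6 to -34.3 in the controls. The summed level of 10 B lineage markers was 40.2, 105 and 104 CPM in the CD69-overexpressing libraries, against 57.3, 53.6 and 60.5 CPM in the controls; its part in the results was not tested. In bulk RNA, fewer cells of a type and less RNA per cell cannot be told apart.

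More members rose than fell. A gene is called higher or lower at an adjusted p under 0.05 (edgeR quasi-likelihood test, two-sided, Benjamini-Hochberg over 19485 tested genes), and levels are CPM scaled by TMM factors. Of 158 members tested, 37 (23.4%) were called higher in CD69-overexpressing cells, beside 14.2% of all tested genes, and 4 (2.53%) were called lower, beside 9.94% of all tested genes. Among all coding genes at the same floor, 17.9% were called higher and 14.2% lower, so the gap in higher calls is narrower on that footing. The median log2 fold change was 0.28 over the members and 0.01 over all tested genes, and 115 members (72.8%) had a positive log2 fold change, beside 50.5% of all tested genes. The untested member was ZNF497, whose counts were erratic: it had 4.60, 0 and 0 CPM in the CD69-overexpressing libraries and 0, 3.58 and 0 CPM in the controls.

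Many members had groups that did not overlap. In 63 members (39.9%, beside 23.0% of all tested genes) every CD69-overexpressing library lay above every control, and in 10 (6.33%, beside 19.3%) every one lay below. The shift was present in each library: the median log2 ratio of the members to the control mean was 0.23, 0.25 and 0.18 in the CD69-overexpressing libraries, while the median over all tested genes was within 0.01 of 0. The summed level of all members was 1724, 1739 and 1654 CPM in the CD69-overexpressing libraries, against 1493, 1491 and 1401 CPM in the controls. Overexpressing replicate 1, which stood apart from its group over all genes, was thus within the range of the other two for the members as a whole. Set alone against the controls it gave 15 members called higher and 0 lower, and without it 31 were called higher and 6 lower (edgeR quasi-likelihood test).

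Large rises made up much of the count. At least 2-fold rises were called in 20 members (12.7%, beside 5.37% of all tested genes) and at least 4-fold rises in 12 (7.59%, beside 2.57%), and 11 of those 12 had a control mean under 1 CPM. Among the 724 other coding genes of chromosome 19 at the same floor, 97 (13.4%) were called higher and 88 (12.2%) lower, with a median log2 fold change of -0.04 and 12 rises of at least 4-fold. Among the 198 coding ZNF genes of other chromosomes, 44 (22.2%) were called higher and 17 (8.59%) lower, with a median of 0.14 and 4 rises of at least 4-fold. The differences between these sets were not tested. The floor itself favours members that are high in 1 group: 17 members reached 1 CPM in the mean of a single group, 15 of them in CD69-overexpressing cells and 2 in controls.

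**Figure D1:**
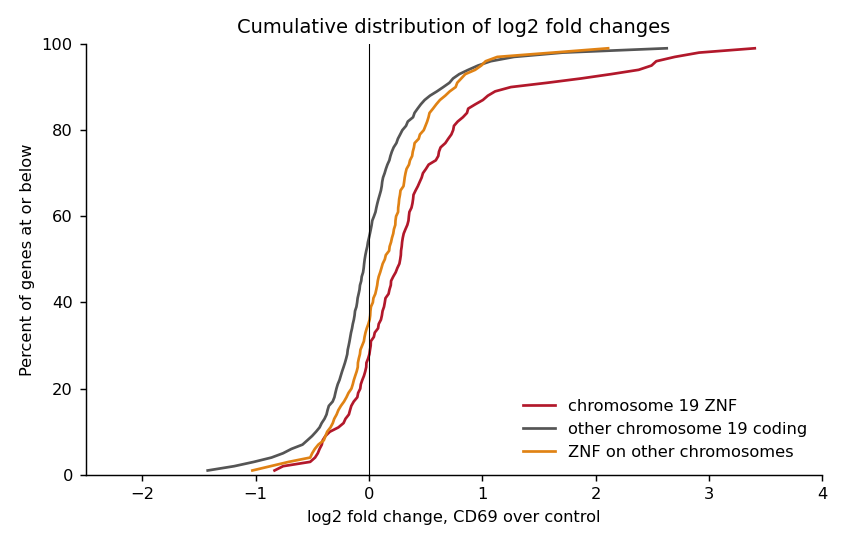
Cumulative distribution of the log2 fold change, CD69-overexpressing over control, in 158 chromosome 19 ZNF members (red), 724 other coding genes of chromosome 19 (grey) and 198 coding ZNF genes of other chromosomes (orange). The x axis is the log2 fold change and the y axis the percent of genes at or below it; the members' line lies to the right of the other lines over most of its range and has a long upper tail, with medians of 0.28, -0.04 and 0.14.

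Along the chromosome, all coding ZNF rows fell into 16 clusters when a gap of more than 1 Mb between neighbouring starts opened a new one, numbered from the end of the short arm. The long-arm clusters 8, 9, 15 and 16, with 93 members between them, held 32 of the 37 called higher and 1 of the 4 called lower. Their shares called higher were 100% (of 2 members), 47.1%, 31.0% and 29.5%, beside 14.2% of all tested genes. The long arm as a whole did not share this: its clusters 6, 7 and 10 to 14 held no member called higher. Cluster 12 among them had 13 members, and the single member of cluster 6 was called lower. The short-arm clusters 2, 3 and 5, with 41 members, held the other 5 called higher and 2 called lower. Their shares were 7.14%, 8.33% and 20% higher and 7.14%, 0% and 6.67% lower, beside 14.2% and 9.94% of all tested genes. Differences between clusters were not tested.

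**Figure D2:**
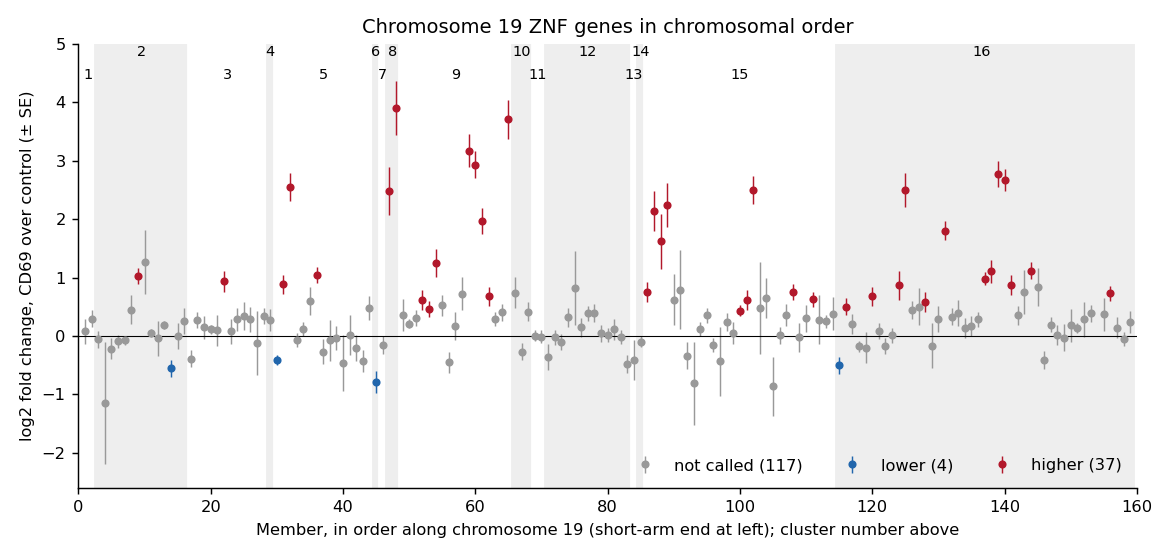
Log2 fold change (CD69-overexpressing over control, with SE) of the 158 tested members in their order along chromosome 19, with bands and numbers for the 16 clusters. Red points were called higher (37), blue points lower (4) and grey points were not called (117); the points above 2 lie in clusters 5, 8, 9, 15 and 16.

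**Figure D3:**
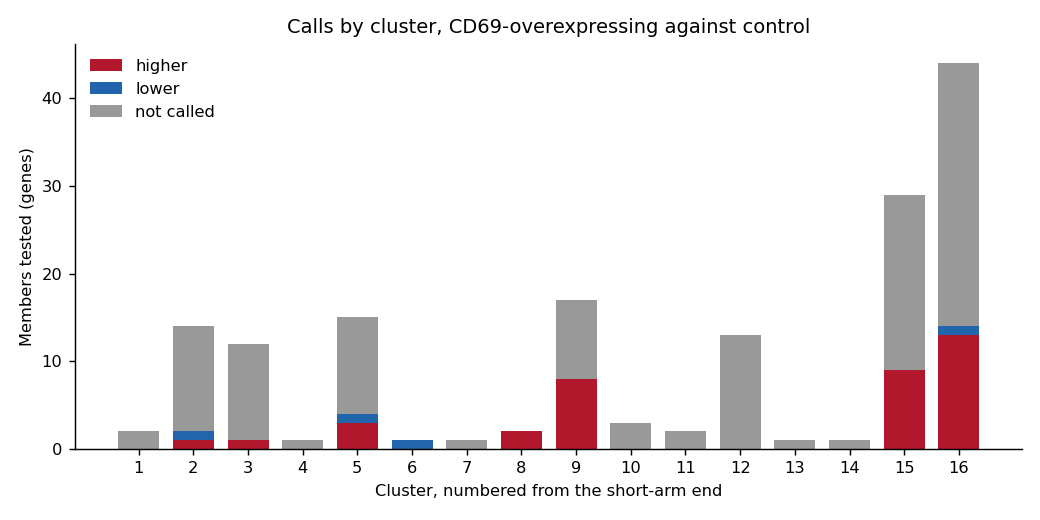
Number of tested members called higher (red), lower (blue) or not called (grey) in each of the 16 clusters, from the end of the short arm at the left. Clusters 9, 15 and 16 hold 8, 9 and 13 members called higher, while cluster 12 holds none.

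Clusters 8 and 9, between 34.68 and 37.82 Mb (GRCh38), held the 4 largest rises. Both members of cluster 8 rose. ZNF181 (ENSG00000197841; chr19:34734155-34745378, plus strand) had 4.75, 5.30 and 5.19 CPM in the CD69-overexpressing libraries, against 0.161, 0.617 and 0.232 CPM in the controls (log2 fold change 3.91, SE 0.47, adjusted p = 0.000941). For its neighbour ZNF302 the CD69-overexpressing libraries held 3.75, 5.18 and 6.33 CPM and the controls 1.32, 0.423 and 0.981 CPM (log2 fold change 2.48, SE 0.42, adjusted p = 0.00439). In both genes every CD69-overexpressing library was above every control, and both encode KRAB zinc finger proteins. The control level of ZNF302 ranged from 0.423 to 1.32 CPM.

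In cluster 9, 8 of 17 members rose (47.1%, beside 14.2% of all tested genes), and the median log2 fold change was 0.52. None was called lower by edgeR's quasi-likelihood test, DESeq2 or limma-voom (1 at an unadjusted p under 0.05). Every CD69-overexpressing library lay above every control in 14 of the 17, beside 23.0% of all tested genes. ZNF569 (ENSG00000196437; chr19:37411155-37469275, minus strand) had 3.23, 3.78 and 3.74 CPM in the CD69-overexpressing libraries, against 0.178, 0.405 and 0.232 CPM in the controls (log2 fold change 3.71, SE 0.34, adjusted p = 0.000272). For ZNF420 (ENSG00000197050; chr19:37007857-37130314, plus strand) the CD69-overexpressing libraries held 3.21, 3.74 and 3.55 CPM and the controls 0.321, 0.317 and 0.517 CPM (log2 fold change 3.18, SE 0.28, adjusted p = 0.000224). ZNF420, also known as APAK, is a KRAB protein known to hold back p53-dependent apoptosis. ZNF585A (ENSG00000196967; chr19:37106734-37172741, minus strand) had 3.48, 3.94 and 3.23 CPM in the CD69-overexpressing libraries, against 0.393, 0.494 and 0.4996 CPM in the controls (log2 fold change 2.94, SE 0.23, adjusted p = 0.000145). For its paralogue ZNF585B the CD69-overexpressing libraries held 4.48, 3.97 and 3.90 CPM and the controls 0.857, 1.27 and 1.03 CPM (log2 fold change 1.96, SE 0.22, adjusted p = 0.000771). In these 4 genes every CD69-overexpressing library was well above every control.

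All but ZNF569 of the called members of cluster 9 stood next to another one. ZNF420, ZNF585A, ZNF585B and ZNF383 are 4 consecutive members over 241 kb, and ZNF260, ZNF529 and ZNF461 are 3 over 156 kb. Here and below, consecutive or neighbouring refers to the order of members only. Coding ZNF rows under the floor may lie between them, as 17 of the 27 such rows in cluster 9 are members. Whether called members adjoin more often than their number alone would give was not tested. ZNF461 had 4.44, 4.29 and 4.99 CPM in the CD69-overexpressing libraries, against 1.43, 1.94 and 2.41 CPM in the controls (log2 fold change 1.25, SE 0.23, adjusted p = 0.00716). For ZNF383 the CD69-overexpressing libraries held 9.87, 9.42 and 10.1 CPM and the controls 4.85, 6.82 and 6.66 CPM (log2 fold change 0.68, SE 0.16, adjusted p = 0.0213). The rises of ZNF260 and ZNF529 were smaller, with log2 fold changes of 0.61 and 0.46. ZNF850, the 1 member of the cluster with every CD69-overexpressing library below every control, was not called (log2 fold change -0.45, SE 0.18, adjusted p = 0.113). Without overexpressing replicate 2, and likewise without replicate 3, the cluster held 5 members called higher.

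Cluster 15 (51.57 to 53.58 Mb) held 9 members called higher among 29 (31.0%, beside 14.2% of all tested genes), with a median log2 fold change of 0.36. None was called lower by edgeR's quasi-likelihood test, DESeq2 or limma-voom, and 0 fell at an unadjusted p under 0.05. ZNF600 had 4.52, 4.72 and 4.35 CPM in the CD69-overexpressing libraries, against 0.982, 0.829 and 0.589 CPM in the controls (log2 fold change 2.50, SE 0.24, adjusted p = 0.00037). For ZNF613 the CD69-overexpressing libraries held 1.75, 2.18 and 1.88 CPM and the controls 0.482, 0.529 and 0.214 CPM (log2 fold change 2.24, SE 0.37, adjusted p = 0.00423). ZNF577 had 2.45, 2.80 and 3.53 CPM in the CD69-overexpressing libraries, against 0.393, 0.670 and 0.928 CPM in the controls (log2 fold change 2.14, SE 0.35, adjusted p = 0.00381). These 3 genes were at or below 1 CPM in every control and above it in every CD69-overexpressing library. Consecutive members called higher were ZNF175, ZNF577, ZNF649 and ZNF613 over 377 kb and ZNF83, ZNF611 and ZNF600 over 193 kb. ZNF175, known as OTK18 from its study in macrophages infected with HIV, had a log2 fold change of 0.75, and ZNF160 and ZNF845 rose by 0.75 and 0.63 on the log2 scale. For ZNF649 the CD69-overexpressing libraries held 3.57, 3.14 and 3.17 CPM and the controls 1.32, 0.353 and 1.53 CPM (log2 fold change 1.62, SE 0.47, adjusted p = 0.0422), so 1 control library was well below its group. ZNF614, chosen after its values were seen, had a control library apart from its group in the same way, with 15.1, 15.3 and 15.1 CPM in the CD69-overexpressing libraries and 12.9, 12.2 and 1.16 CPM in the controls, and it was not called.

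Cluster 16 (55.48 to 58.48 Mb), the largest, had 44 members tested and a median log2 fold change of 0.31. Of the 44, 13 (29.5%, beside 14.2% of all tested genes) were called higher and 1 (2.27%, beside 9.94%) lower. Its longest run was ZNF550, ZNF416, ZNF530, ZNF134 and ZNF211, 5 consecutive members within 108 kb. ZNF530 (ENSG00000183647; chr19:57599885-57612722, plus strand) had 5.46, 4.36 and 4.47 CPM in the CD69-overexpressing libraries, against 0.660, 0.811 and 0.607 CPM in the controls (log2 fold change 2.78, SE 0.22, adjusted p = 0.000161). For ZNF134 (ENSG00000213762; chr19:57614233-57624723, plus strand) the CD69-overexpressing libraries held 8.32, 8.89 and 7.33 CPM and the controls 1.43, 1.08 and 1.36 CPM (log2 fold change 2.67, SE 0.19, adjusted p = 9.49e-05). The 3 other genes of the run had smaller rises from higher control levels, with log2 fold changes of 0.98 in ZNF550, 1.11 in ZNF416 and 0.87 in ZNF211. Elsewhere in the cluster, ZNF470 had 4.62, 3.87 and 2.94 CPM in the CD69-overexpressing libraries, against 0.4997, 0.846 and 0.678 CPM in the controls (log2 fold change 2.49, SE 0.29, adjusted p = 0.000851). For ZNF548 the CD69-overexpressing libraries held 15.6, 15.9 and 16.2 CPM and the controls 5.02, 5.15 and 3.52 CPM (log2 fold change 1.80, SE 0.17, adjusted p = 0.000293). ZNF776 and ZNF584, nearer the end of the arm, rose by 1.12 and 0.73 on the log2 scale. Coding genes that are not named ZNF but lie inside clusters 9, 15 and 16 numbered 1, 4 and 13 at the same floor, and of these 1, 0 and 1 were called higher and 0, 2 and 2 lower.

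The short-arm clusters 2 and 5 each held calls in both directions. In cluster 5 (19.67 to 24.13 Mb), 15 of 37 coding rows reached the floor, 3 rose (20%, beside 14.2% of all tested genes) and 1 fell (6.67%, beside 9.94%), and the median log2 fold change was -0.04. ZNF253 (ENSG00000256771; chr19:19865886-19894674, plus strand) had 4.98, 4.43 and 3.21 CPM in the CD69-overexpressing libraries, against 0.732, 0.723 and 0.696 CPM in the controls (log2 fold change 2.55, SE 0.24, adjusted p = 0.000316). Its neighbour ZNF506 rose by 0.88 on the log2 scale. For ZNF431 the CD69-overexpressing libraries held 47.5, 50.9 and 40.3 CPM and the controls 25.2, 23.6 and 18.8 CPM, a rise of 1.04 on the log2 scale in a gene already well expressed. ZNF91, a cluster 5 gene known to repress SVA retrotransposons, was not called and had 1.60 ± 0.203 CPM in CD69-overexpressing cells and 1.85 ± 0.239 CPM in controls (SD, n = 3 each).

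Cluster 2 (7.07 to 9.79 Mb) held 1 rise (7.14%, beside 14.2% of all tested genes) and 1 fall (7.14%, beside 9.94%) among 14 members. ZNF559 had 8.92, 9.65 and 8.78 CPM in the CD69-overexpressing libraries, against 4.44, 4.62 and 4.35 CPM in the controls (log2 fold change 1.03, SE 0.13, adjusted p = 0.00139). The readthrough row ZNF559-ZNF177 shares exons with it and was not called (log2 fold change 1.27, SE 0.54, adjusted p = 0.135). In cluster 3 (11.48 to 12.64 Mb), ZNF136 was the only called member of 12 (8.33% higher, beside 14.2% of all tested genes). For ZNF136 the CD69-overexpressing libraries held 5.19, 5.94 and 5.66 CPM and the controls 3.25, 3.07 and 2.44 CPM (log2 fold change 0.94, SE 0.18, adjusted p = 0.00798). In cluster 12 (43.53 to 45.08 Mb), none of 13 members was called by the edgeR quasi-likelihood test (2 higher and 1 lower at an unadjusted p under 0.05), DESeq2 and limma-voom each called 1 higher and 1 lower, and the median log2 fold change was 0.04. ZNF224, a cluster 12 gene known to repress the aldolase A gene, had 19.5 ± 1.26 CPM in CD69-overexpressing cells and 14.9 ± 2.00 CPM in controls (SD, n = 3 each), with the groups apart but an adjusted p of 0.0556.

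A few members were near silent in controls and expressed in CD69-overexpressing cells. A member counts as switched when every library of 1 group is at or under 0.5 CPM and every library of the other at or above 1 CPM. By that rule ZNF569 and ZNF585A were on in CD69-overexpressing cells and off in controls, and no member was off in CD69-overexpressing cells and on in controls. Both genes reached the floor only through the CD69-overexpressing libraries. The share of all tested genes that met the same limits was not counted, so whether switching was more frequent among the members is not known. ZNF585A sat at the limit, with 0.4996 CPM in control replicate 3, and with a ceiling of 0.2 CPM no member was switched. ZNF181 and ZNF420 missed the limit by 1 control library each, at 0.617 and 0.517 CPM. No member was at 0 counts in a whole group: ZNF181 had 266, 299 and 265 counts in the CD69-overexpressing libraries, against 9, 35 and 13 in the controls.

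**Figure D4:**
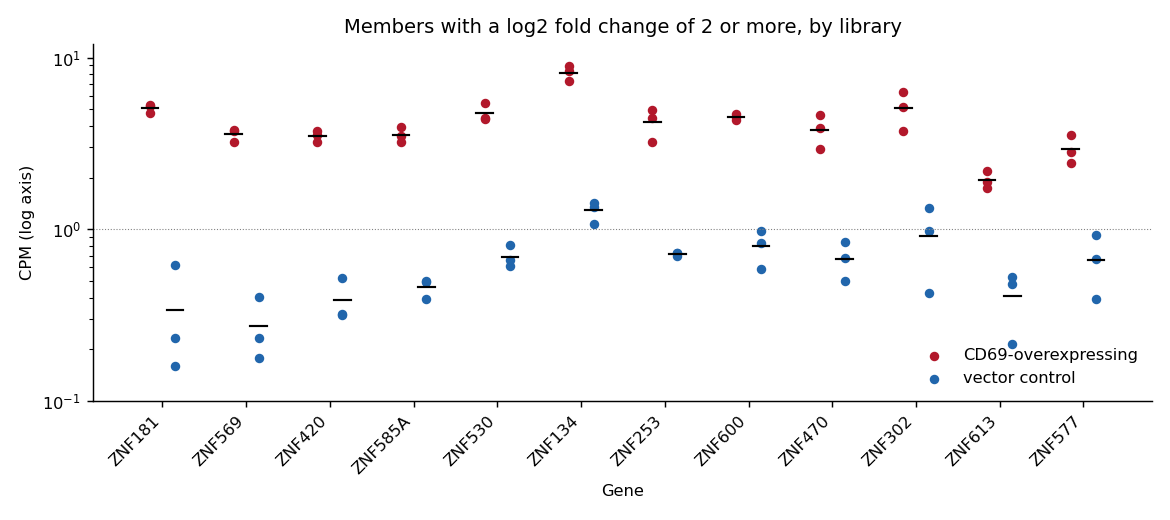
Level in CPM (log axis) of the 12 members with a called log2 fold change of 2 or more, in each of the 3 CD69-overexpressing libraries (red) and 3 controls (blue), with black lines at the group means and a dotted line at 1 CPM. All red points lie above 1 CPM; the blue points lie below it in all but ZNF134 and 1 library of ZNF302.

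The large rises held when any library was left out. All 12 members at 4-fold or more, and 27 of the 37 called higher, were called in each of the 6 fits that left out 1 library. With overexpressing replicate 1 alone against the controls, 9 of the 12 were called, and ZNF302, ZNF577 and ZNF613 were not (edgeR adjusted p = 0.0986, 0.0922 and 0.0943). Of the 37, 15 were called under all 17 alternatives. All 37 were also called when counts were divided by 4. Counts of several of the called members are uncertain because their exons overlap those of a second gene in the same orientation (ZNF559, ZNF506, ZNF431, ZNF536, ZNF585A, ZNF585B, ZNF577, ZNF649, ZNF580, ZNF583, ZNF548 and ZNF776) or overlap a gene on the other strand (11 of the members called higher, among them ZNF569 with ZNF570, ZNF383 with ZNF585B, ZNF550 with ZNF549 and ZNF416 with ZIK1). Near-identical sequence was rare among them: ZNF559 and ZNF585B were the members called higher that shared more than 10% of their 150-base windows with another gene, at 10.2% and 10.6%.

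The 4 falls were small, in genes that stayed expressed. ZNF536 (ENSG00000198597; chr19:30228290-30713538, plus strand) had 5.98, 6.08 and 5.95 CPM in the CD69-overexpressing libraries, against 10.8, 12.4 and 7.92 CPM in the controls (log2 fold change -0.79, SE 0.18, adjusted p = 0.0172). ZNF536 is known as a repressor of neuronal differentiation and is alone in its cluster. For ZNF561 the CD69-overexpressing libraries held 8.66, 9.29 and 8.95 CPM and the controls 13.5, 15.2 and 10.7 CPM (log2 fold change -0.55, SE 0.15, adjusted p = 0.0313). ZNF628 had 5.98, 6.28 and 5.84 CPM in the CD69-overexpressing libraries, against 8.17, 7.67 and 9.81 CPM in the controls (log2 fold change -0.50, SE 0.15, adjusted p = 0.0435). For ZNF101 the CD69-overexpressing libraries held 15.6, 14.8 and 13.7 CPM and the controls 19.5, 19.6 and 19.6 CPM (log2 fold change -0.41, SE 0.09, adjusted p = 0.0157). In each of the 4, every CD69-overexpressing library lay below every control. The calls were fragile: no member was called lower without control replicate 1, control replicate 2, overexpressing replicate 2 or overexpressing replicate 3, while 6 were without overexpressing replicate 1 and 5 without control replicate 3. Opposite changes stood in neighbouring members at 2 places: ZNF101 with ZNF506 and ZNF628 with ZNF579, where ZNF506 and ZNF579 rose. ZNF14, which is below the floor, lies between ZNF101 and ZNF506.

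The 3 most abundant members had small log2 fold changes. ZNF146 had 147, 146 and 143 CPM in the CD69-overexpressing libraries, against 132, 133 and 111 CPM in the controls (log2 fold change 0.21, SE 0.08, adjusted p = 0.103). ZNF146, also known as OZF, consists almost wholly of zinc fingers and lacks a KRAB domain. For ZNF266 the CD69-overexpressing libraries held 54.6, 52.3 and 57.4 CPM and the controls 52.3, 52.3 and 54.8 CPM (log2 fold change 0.04, SE 0.07, adjusted p = 0.676). ZNF83 had 57.6, 56.0 and 59.0 CPM in the CD69-overexpressing libraries, against 45.2, 46.1 and 36.9 CPM in the controls (log2 fold change 0.43, SE 0.10, adjusted p = 0.0150). Of these 3, ZNF83 was called. Other members with known roles were not called: ZNF274, which recruits SETDB1 to the 3′ ends of ZNF genes, had 26.4 ± 0.583 CPM in CD69-overexpressing cells and 24.1 ± 1.86 CPM in controls (SD, n = 3 each). ZNF587, known for its action on endogenous retroviruses, had 24.9 ± 6.15 CPM in CD69-overexpressing cells and 25.4 ± 5.91 CPM in controls (SD, n = 3 each).

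Just inside the floor were ZNF43, with a mean of 1.02 CPM over the 6 libraries, and ZNF154, with 1.02. Just outside were ZNF304, with 0.996 CPM, and ZNF221, with 0.978. None of these 4 was called. Of the 92 rows below the floor, 68 were tested, and 2 were called higher and 1 lower, beside 14.2% and 9.94% of all tested genes. ZNF284 had 1.04, 1.33 and 1.49 CPM in the CD69-overexpressing libraries, against 0.0714, 0.370 and 0.125 CPM in the controls (log2 fold change 2.75, SE 0.58, adjusted p = 0.0118). For ZNF570, whose exons overlap those of ZNF569 on the other strand, the CD69-overexpressing libraries held 0.821, 1.53 and 1.23 CPM and the controls 0.321, 0.353 and 0.375 CPM (log2 fold change 1.77, SE 0.35, adjusted p = 0.00904). ZNF415 had 0.178, 0.124 and 0.0784 CPM in the CD69-overexpressing libraries, against 0.393, 0.458 and 0.589 CPM in the controls (log2 fold change -1.89, SE 0.51, adjusted p = 0.0328). All 3 had groups that did not overlap, at levels near or below 1 CPM.

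A pattern that the groups do not explain was about as frequent among members as among all tested genes. In 5 members, overexpressing replicates 2 and 3 were below every control and under 0.5 times replicate 1. This pattern was chosen after the values were seen. ZNF841 had 5.14, 0.656 and 0.881 CPM in the CD69-overexpressing libraries, against 3.28, 3.65 and 4.80 CPM in the controls. For ZNF114 the CD69-overexpressing libraries held 5.76, 2.82 and 2.43 CPM and the controls 5.19, 3.90 and 5.51 CPM. ZNF320 had 2.00, 0.780 and 0.431 CPM in the CD69-overexpressing libraries, against 2.11, 2.01 and 1.73 CPM in the controls. The others were ZNF528 and ZNF358, and none of the 5 was called. The share among members, 3.16%, was close to the 3.13% of all tested genes. Below the floor it was more frequent: 25 rows had it, 23 of them tested (33.8% of 68), beside 6.89% of tested genes under 1 mean CPM; the difference was not tested.

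The 30 rows together had 33.1, 8.14 and 7.07 CPM in the CD69-overexpressing libraries, against 25.5, 25.0 and 30.4 CPM in the controls. The rows were picked for low values in overexpressing replicates 2 and 3, so the low sums there follow from the choice. The keratin genes KRT8 and KRT18 were also low in overexpressing replicates 2 and 3: KRT8 had 56.9, 14.3 and 11.3 CPM in the CD69-overexpressing libraries, against 55.6, 58.5 and 57.4 CPM in the controls. KRT18 had 25.6, 4.70 and 5.33 CPM in the CD69-overexpressing libraries, against 28.3, 23.8 and 26.2 CPM in the controls. The summed level of the 5 fibroblast and epithelial markers was 106, 33.3 and 25.6 CPM in the CD69-overexpressing libraries, against 102, 115 and 109 CPM in the controls. KRT8 and KRT18 are among the 5 and make up most of this sum. COL1A2 had the same pattern, but COL1A1 and EPCAM did not. COL1A1 had 9.33, 8.16 and 4.94 CPM against 5.23, 15.1 and 9.17 CPM. EPCAM had 1.21, 1.24 and 0.979 CPM against 2.37, 3.03 and 1.68 CPM, and was called lower. The sum over the 30 rows in overexpressing replicate 1 was above that of each control, which the choice of rows also favours. The part of the marker genes in the pattern was not tested.

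**Figure D5:**
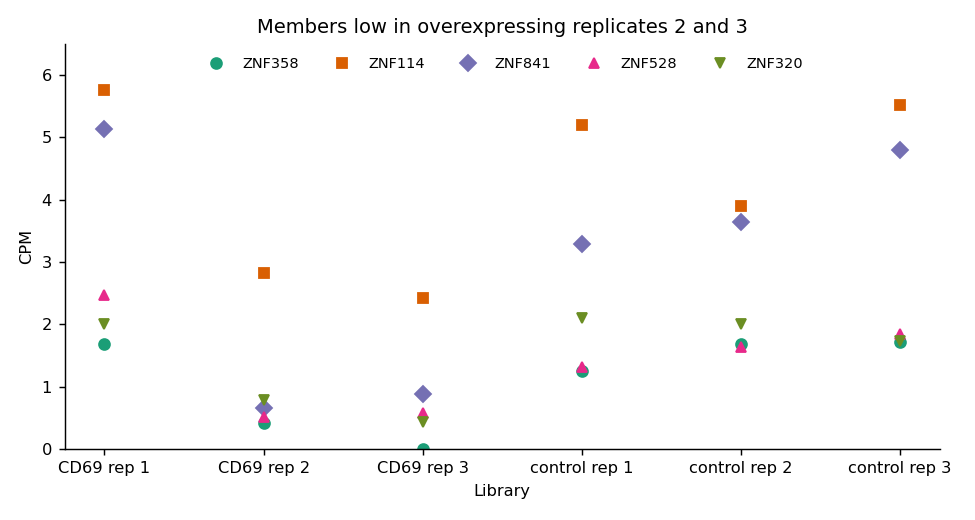
Level in CPM of ZNF358, ZNF114, ZNF841, ZNF528 and ZNF320 in each library, with the 3 CD69-overexpressing libraries at the left and the 3 controls at the right. In overexpressing replicates 2 and 3 every gene lies below its controls, as the choice of these genes requires, while replicate 1 lies between 1.68 and 5.76 CPM.

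Features of the encoded proteins and promoters differed little between called and uncalled members. The median number of C2H2 fingers, counted by their spacing pattern in the longest reading frame, was 11 in the 37 members called higher, 12.5 in the 12 at 4-fold or more, 9.5 in the 4 called lower and 12 in the 117 not called, with a range of 1 to 31 over the members. A short motif typical of the KRAB domain (phenylalanine, any residue, aspartate, valine, alanine within the first 200 residues) was found in 25 of 37 members called higher (67.6%), 10 of the 12 at 4-fold or more (83.3%), 2 of 4 called lower and 74 of 117 not called (63.2%). A KRAB domain that departs from this motif is missed by it. RefSeq promoter windows matched 141 of the 159 members. Their median CG number was 22 in members called higher, 21 in those at 4-fold or more and 22 in those not called, beside 14 over all windows of the table. The motif AAGATGGC, the core of the binding motif of YY1, was searched on both strands and found in 11 of the 141 windows (7.80%), beside 3.03% of all windows, and in 3 of 31 windows of members called higher. These shares are descriptions with no test.

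On a list of KRAB partners and other chromatin and replication genes, here called cofactors, more genes fell than rose. The list is thus broader than the proteins through which KRAB zinc finger proteins act, and PCNA is on it. Of its 36 genes, 3 (8.33%, beside 14.2% of all tested genes) were called higher and 11 (30.6%, beside 9.94%) lower. Their median log2 fold change was -0.16. Most of the 36 were well expressed, and among all coding genes at 1 CPM or more, 17.9% were called higher and 14.2% lower. DNMT3B, a DNA methyltransferase that sets new methylation, averaged 34.8 ± 2.43 CPM in CD69-overexpressing cells and 89.8 ± 8.12 CPM in controls (SD, n = 3 each; log2 fold change -1.37, SE 0.09, adjusted p = 7.44e-05). HDAC2, a histone deacetylase, averaged 232 ± 5.26 CPM in CD69-overexpressing cells and 407 ± 9.29 CPM in controls (SD, n = 3 each; log2 fold change -0.81, SE 0.06, adjusted p = 8.23e-05). Its partner HDAC1 averaged 195 ± 1.80 CPM in CD69-overexpressing cells and 296 ± 12.5 CPM in controls (SD, n = 3 each; log2 fold change -0.60, SE 0.06, adjusted p = 0.000368). The groups did not overlap in any of these 3 genes. The other genes called lower were SUMO3, CHD3, HELLS, CBX5, CBX1, ATF7IP2, UHRF1 and DAXX, with log2 fold changes between -0.59 and -0.24.

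PCNA, the replication clamp, averaged 627 ± 45.4 CPM in CD69-overexpressing cells and 416 ± 29.8 CPM in controls (SD, n = 3 each; log2 fold change 0.59, SE 0.08, adjusted p = 0.00164), and the histone methyltransferase SUV39H1 and the chromatin remodeller ATRX were also called higher, with log2 fold changes of 0.51 and 0.63. TRIM28, the KRAB corepressor, had 450, 448 and 485 CPM in the CD69-overexpressing libraries, against 536, 515 and 625 CPM in the controls (log2 fold change -0.28, SE 0.09, adjusted p = 0.0508). TRIM28 was thus lower in every CD69-overexpressing library and just missed the threshold, and it was called lower under 6 of 17 alternatives (adjusted p 0.00854 to 0.514 over all 17). For SETDB1, the methyltransferase TRIM28 recruits, the CD69-overexpressing libraries held 70.4, 78.1 and 63.5 CPM and the controls 67.3, 70.8 and 66.0 CPM (log2 fold change 0.05, SE 0.09, adjusted p = 0.698), with overlapping groups. Whether the changes in these genes and in the members are linked was not tested.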

How the data were processed

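Poly(A) RNA of 3 CD69-overexpressing and 3 vector control NB4 libraries was sequenced with a strand-specific (dUTP) kit, per the labels' protocols. The authors deposited raw counts for each gene in 1 table. FastQC, fastp, STAR, featureCounts (Subread) and GRCh38 (hg38) are named, per the submitters' processing notes; versions, annotation release and strand setting are not given in the sources used here. All libraries held an excess of genes at exactly 4 counts (1496 genes against 777 at 3 and 505 at 5 in control replicate 1), so 1 fragment may stand for about 4 counts and the depth in fragments may be below the totals. An alternative divided counts by 4. No pair of libraries agreed within sampling noise.

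The members, clusters, lists and tests were chosen with earlier results of these data known. Members are coding rows of chromosome 19 with symbols starting ZNF and a mean of at least 1 CPM (count over library total). Biotypes and positions came from GENCODE release 29 by gene identifier. The whole table was fitted with edgeR 4.0.16 in R 4.3.3 (filterByExpr, TMM, quasi-likelihood test, Benjamini-Hochberg), and members were read from it. The test was tested on simulated data. Per-library log2 ratios used a pseudocount of 0.5 CPM. A pattern of C2H2 spacing and a KRAB motif were counted in the longest reading frame of GENCODE coding transcripts, in place of the planned protein table, which was not used here. The values of 1 marker gene are not reported here. Named members were the 10 largest rises and falls, the smallest p in each direction per cluster of 3 or more, switched members, the 3 most abundant, those nearest the floor, and up to 4 cofactors with TRIM28 and SETDB1; the others are described within their cluster or were chosen after their values were seen. Replicate numbers did not pair libraries (correlation of same-numbered deviations 0.013, 0.081 and 0.234). The 17 alternatives of the fit were RLE, upper-quartile and no scaling, no filter, a minimum of 50 counts in at least 3 libraries, limma-voom (limma 3.58.1), DESeq2 1.42.0, glmTreat against a fold of 1.2, the replicate block, counts divided by 4, overexpressing replicate 1 alone, and each library left out; a floor of 5 CPM, cluster gaps of 0.5 and 2 Mb and other limits for a switched gene were also tried. Figures were drawn with matplotlib 3.10.9.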

Additional observations from a re-analysis of the deposited data

How the results depend on the processing

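Higher and lower members numbered 35 and 4 with RLE, 36 and 4 with upper-quartile or no scaling, 40 and 5 with DESeq2, 39 and 5 with limma-voom, and 38 and 5 with counts divided by 4. Members called higher ranged from 27 to 33 and members called lower from 0 to 6 when 1 library was left out. Overexpressing replicate 1 alone gave 15 higher and 0 lower members, and 4, 1 and 6 higher members in clusters 9, 15 and 16. Without a filter 2 members were lower. Against a fold of 1.2, 1 member was lower, cluster 9 held 5 higher, and 7 cofactors were lower. With 1 library left out, cluster 9 held 5 to 6, cluster 15 held 6 to 8 and cluster 16 held 9 to 12 higher members, the cofactors 2 to 4 higher and 9 to 13 lower, and the members' median was 0.22 to 0.29. At a floor of 5 CPM 17 members were higher, with a median of 0.18. A gap of 2 Mb joined clusters 15 and 16 (22 higher). A ceiling of 0.2 CPM left 0 switched members. The replicate numbers do not pair the libraries; with the replicate block 41 members were higher and 3 lower, and 5 cofactors higher and 17 lower, and 139 other chromosome 19 coding genes lower. Cofactors called higher were 5 with DESeq2, and 0 higher and 3 lower with overexpressing replicate 1 alone. Other chromosome 19 coding genes were 59 higher and 30 lower against a fold of 1.2, 25 and 16 with overexpressing replicate 1 alone, and 57 to 129 and 38 to 84 with 1 library left out. ZNF genes of other chromosomes called higher and lower were 25 and 7 against a fold of 1.2, 14 and 0 with overexpressing replicate 1 alone, and 24 to 42 and 10 to 18 with 1 library left out. With overexpressing replicate 1 alone the log2 fold changes of ZNF43, ZNF154 and ZNF221 were 0.24, -0.015 and 0.28. With 1 library left out, ZNF221 ranged from -0.31 to 0.35 and SETDB1 from -0.030 to 0.13. None of these had been called. The causes were not tested. Members near 1 CPM rest on few counts, which limits their precision.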

Other observations

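Non-coding rows named for ZNF genes on chromosome 19 were also measured. Of these, 13 reached 1 CPM, and 1 (7.69%, beside 14.2% of all tested genes) was called higher (edgeR quasi-likelihood test). ZNF433-AS1 had 2.73, 3.23 and 3.23 CPM in the CD69-overexpressing libraries, against 0.375, 0.547 and 0.393 CPM in the controls (log2 fold change 2.80, SE 0.26, adjusted p = 0.000281), with the groups apart. Of 6 other zinc finger genes on chromosome 19 with ZFP, ZSCAN or ZBTB symbols, 1 (16.7%, beside 14.2% of all tested genes) was called higher. For ZFP14, a KRAB gene inside cluster 9, the CD69-overexpressing libraries held 3.39, 4.65 and 5.15 CPM and the controls 2.16, 3.05 and 2.48 CPM (log2 fold change 0.78, SE 0.23, adjusted p = 0.0459). These values are given with no explanation.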
